A study of Mus musculus with 48 samples.

Results

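The genes by which a cell takes up, delivers, stores and senses iron were followed in single erythroid progenitors as a set of 10 of the 24062 genes in the count table. They were chosen by symbol for their role in iron handling and are Tfrc, Steap3, Slc11a2, Slc25a37, Slc25a38, Fth1, Ftl1, Ncoa4, Aco1 and Ireb2. All 10 were found, and all 10 passed the filter used to set them beside other genes. That filter asked for reads in 10 or more cells and for a mean of 5 CPM over all 48 cells, and 8601 genes passed it. CPM here are counts divided by a library size that TMM, a trimmed mean over genes, had adjusted, so that cells of unequal depth can be set side by side. The cells are 48 single cells from mouse fetal liver at embryonic day 14.5, labelled BFU-E, the early burst-forming progenitor of red cells. Magnetic beads removed cells that carried CD34, CD41, CD16/CD32, B220, CD3, Sca-1, Mac-1, Gr-1 or Ter119, c-Kit-positive cells were kept, and flow cytometry took the 10% with least CD71. No strain, transgene or treatment is named for these cells, and whether livers were pooled is not given in the labels. The protocol goes on to cultures with and without dexamethasone and TGF-beta inhibitors, and no label assigns these cells to one. Full-length cDNA was made in microfluidic chambers with SMART-Seq chemistry and sequenced without molecular identifiers.

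Since no animal, litter, chip or batch is named, the 48 cells are 1 sample, and every value below describes these cells with no test. A cell had 246007 to 3211186 counts in all and reads of 5180 to 7935 genes. In 2 cells C1qb, a complement gene of macrophages, stood at 9740 and 8038 CPM, with 7.33 and 2.08 CPM of Gata1, the erythroid regulator, and 7.33 and 1.38 CPM of Kit, which encodes c-Kit. These C1qb-high cells go against their label. The other 46 cells had C1qb under 1000 CPM, and among them Kit was read in 44 and Gata1 in 42. Between the sets, 1 of the 46 cells had 338 CPM of C1qb, with 336 CPM of Gata1 and 491 CPM of Kit, and the next highest had 6.86 CPM. Whether that chamber held more than 1 cell was not tested.

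Red cell precursors need large amounts of iron for heme. Transferrin-bound iron enters through the transferrin receptor Tfrc, is reduced in the endosome by Steap3 and leaves the endosome through Slc11a2. Slc25a37 carries iron into mitochondria, ferritin made of Fth1 and Ftl1 chains stores the surplus, and Ncoa4 brings ferritin to the lysosome for release. Aco1 and Ireb2 are the iron regulatory proteins: when iron is low they bind hairpins in messenger RNAs called iron-responsive elements, blocking translation where the element lies in the 5′ UTR and protecting the message where it lies in the 3′ UTR.

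Matches to a strict pattern of these elements were shared by 3 members and are shown for that reason. GENCODE M21 transcripts were searched for a bulged C, a stem of 5 pairs and a loop of 6 bases. The loop had to read CAGTG and then A, C or T. The pattern was found in 3 members, Fth1, Ftl1 and Tfrc. Of the other iron genes listed, Slc40a1 and Alas2 had a match in the 5′ UTR and Bola3 in the 3′ UTR. The match in Alas2 spans an intron and is not printed, and that of the iron exporter Slc40a1 is shown because its level is given with those of ferritin. Capitals mark the bulged C and the 6 bases of the loop, and coordinates are GRCm38.
Fth1, 5′ UTR, chr19:9982732-9982761, plus strand: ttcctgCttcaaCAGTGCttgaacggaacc
Ftl1, 5′ UTR, chr7:45459778-45459807, minus strand: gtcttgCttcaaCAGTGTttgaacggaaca
Slc40a1, 5′ UTR, chr1:45925464-45925493, minus strand: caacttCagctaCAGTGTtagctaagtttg
Tfrc, 3′ UTR, first, chr16:32631219-32631248, plus strand: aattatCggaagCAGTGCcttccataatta
Tfrc, 3′ UTR, second, chr16:32631598-32631627, plus strand: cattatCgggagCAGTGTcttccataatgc
Tfrc, 3′ UTR, the third, chr16:32631663-32631692, plus strand: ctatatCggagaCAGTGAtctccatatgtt
Tfrc, 3′ UTR, the fourth, chr16:32631710-32631739, plus strand: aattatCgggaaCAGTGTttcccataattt
The Fth1 and Ftl1 elements each lie in the exonic 5′ UTR, and Tfrc had 4 matches within its 3′ UTR. Of 21901 protein-coding genes searched, 22 (0.100%) had a match in a 5′ UTR and 99 (0.452%) in a 3′ UTR. The other 7 members had no match to this strict pattern, which says only that these letters and pairs were not found. A match is a sequence description, and protein binding was not measured.

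Ferritin was the exception among the members in being read everywhere. Ftl1, the ferritin light chain, had 487 CPM in the lowest of the 46 cells, a median of 1767 CPM and 3367 CPM in the highest, and 39 cells reached 1000 CPM. Fth1, the heavy chain that oxidises iron for storage, had 137, 900 and 2436 CPM as its lowest, median and highest values, and 18 cells reached 1000 CPM. Every one of the 46 cells thus held both ferritin messages at 100 CPM or more. The highest cell exceeded the lowest by 6.91 times for Ftl1 and 17.8 times for Fth1. Both highest values were in the cell with 338 CPM of C1qb. The next highest were 3202 CPM for Ftl1 and 1713 CPM for Fth1. How the authors counted reads shared with ferritin pseudogene copies is not given in the sources used here. In mean level Ftl1 lay above 99.5% of the genes of the filter and Fth1 above 98.6%.

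The ferritin chains were not held at a fixed ratio. Ftl1 exceeded Fth1 in 39 of the 46 cells, and the ratio of their CPM ran from 0.488 to 16.4 with a median of 1.98. The highest ratio was in the single cell of lowest Fth1, with 137 CPM of Fth1 and 2256 CPM of Ftl1. Over the 46 cells the levels of the chains had a Spearman rank correlation (rho) of −0.04. Their transcripts are of near-equal length, and per kilobase of the principal transcript the means were 1914 ± 759 CPM for Ftl1 and 964 ± 454 CPM for Fth1 (SD over 46 cells). The gap between these means was larger than either SD.

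Ncoa4, the receptor that sends ferritin to the lysosome, was read in 43 of 46 cells (82.1 to 98.6% by the 95% Clopper-Pearson interval). Its level was 0 CPM in the lowest cell, 45.8 CPM at the median and 1943 CPM in the highest. Of these cells, 32 held 10 CPM or more and 18 held 100 CPM or more. Intervals here and below cover counting error only.

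The uptake genes were read in most cells, and Tfrc was at a high level in more of them than Slc11a2 or Steap3. Tfrc, which encodes CD71, was read in 42 of 46 cells (interval 79.2 to 97.6%), with 0, 50.1 and 1993 CPM as lowest, median and highest values. A level of 10 CPM was reached by 30 of them and one of 100 CPM by 20. The cells had been sorted for little CD71 protein on the surface, and these values are of the message. Slc11a2, the endosomal iron transporter, was read in 34 cells (interval 58.9 to 85.7%) and had 0, 2.69 and 566 CPM. Its level was at least 10 CPM in 18 cells and at least 100 CPM in 9. Steap3, the endosomal ferrireductase, was read in 30 cells (interval 49.8 to 78.6%) and had 0, 1.07 and 466 CPM. Its level was at least 10 CPM in 16 cells and at least 100 CPM in 11.

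Uptake messages were often not found together. At 10 CPM, 10 of the 46 cells held none of Tfrc, Steap3 and Slc11a2, 15 held 1 of them, 14 held 2 and 7 held all 3. All 7 cells with the full set had Gata1 at 10 CPM or more. The 5 highest cells supplied 54.7% of the summed Tfrc level, 67.4% of that of Slc11a2 and 59.9% of that of Steap3.

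The mitochondrial carriers were also uneven. Slc25a37, the iron importer mitoferrin-1, was read in 36 cells (interval 63.6 to 89.1%), with 0, 3.04 and 711 CPM as lowest, median and highest values. Slc25a38, known from yeast, zebrafish and human as the glycine carrier for heme synthesis, was read in 34 cells (interval 58.9 to 85.7%), with 0, 1.28 and 466 CPM. Both carriers reached 10 CPM in 7 cells, Slc25a37 alone in 11, Slc25a38 alone in 8 and neither in 20.

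The sensors had the lowest mean levels per kilobase of the 10 members, within the spread over cells. By median per kilobase Steap3 was lower, at 0.366 CPM against 0.540 for Aco1 and 0.693 for Ireb2. Aco1, iron regulatory protein 1, which is a cytosolic aconitase when it holds an iron-sulfur cluster, was read in 36 cells (interval 63.6 to 89.1%). Its lowest, median and highest levels were 0, 2.07 and 983 CPM, and 4 cells reached 100 CPM. The 5 highest cells held 89.2% of its summed level, the largest such share of the 10 members. Ireb2, iron regulatory protein 2, which is degraded when iron is plentiful, was read in 35 cells (interval 61.2 to 87.4%), with 0, 4.0 and 1078 CPM. Both sensors reached 10 CPM in 4 cells, Aco1 alone in 7, Ireb2 alone in 15 and neither in 20.

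Per kilobase of principal transcript, the mean levels below ferritin ran in the order Ncoa4 (62.2 ± 109 CPM), Tfrc (47.5 ± 80.1), Slc25a38 (34 ± 65.9), Slc25a37 (25.2 ± 43.7), Slc11a2 (23.6 ± 47.3), Steap3 (18.8 ± 35.3), Ireb2 (16.5 ± 36.7) and Aco1 (10.2 ± 39.7; SD over 46 cells). Each of these 8 neighbours differed from the next by less than its SD over cells, so only the step up to Fth1 and Ftl1 exceeded the spread. A cell had between 2 and 9 of the 10 members at 10 CPM or more, with a median of 5. Counts at 10 CPM are given because lower levels can be background: C1qb itself was read in 21 of the 46 cells, at no more than 6.86 CPM in all but 1. With every cell thinned to 246007 counts, Tfrc was read in 35 cells, Slc11a2 in 23, Slc25a37 in 24, Slc25a38 in 18 and Aco1 in 22, each below its interval above.

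**Figure D1:**
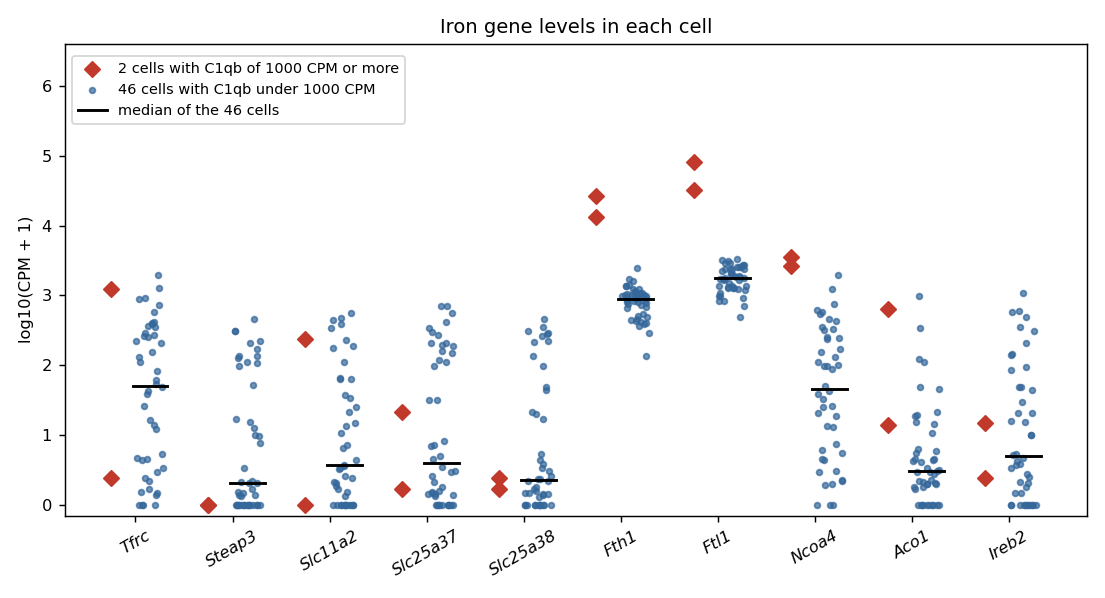
Level of each iron gene in each cell, as log10(CPM + 1). Red diamonds are the 2 cells with C1qb of 1000 CPM or more, blue points the 46 other cells, and black lines the median of the 46. Both diamonds lie above every blue point for Fth1, Ftl1 and Ncoa4; the blue points form a tight band only for Fth1 and Ftl1 and spread from 0 upwards for the other 8 genes.

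Gata1, a transcription factor that red cell precursors need, served as the measure of erythroid state, and over the 46 cells the endosomal gene Slc11a2 followed it most of the 10 members, ahead of Steap3 and Fth1. Gata1 was at 10 CPM or more in 28 of the 46 cells and below it in 18. The nearest cells to that limit had 16.3 and 9.31 CPM, and 3 cells lay between 5 and 20 CPM. Median total counts were 2074378 in the 28 cells and 1659078 in the 18.

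Slc11a2 was read in 27 of the 28 cells with Gata1 at 10 CPM or more (interval 81.7 to 99.9%) and in 7 of the 18 cells below (17.3 to 64.3%). It reached 10 CPM in 17 of the 28 cells and in 1 of the 18, where that cell had 441 CPM. The levels were 0, 22.3 and 566 CPM as lowest, median and highest in the 28 cells, against 0, 0 and 441 CPM in the 18. The ranges overlapped, although 17 of the 18 cells with Slc11a2 at 10 CPM or more had Gata1 at 10 CPM or more. After thinning to equal depth it was read in 21 of the 28 cells and 2 of the 18.

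Steap3 was read in 22 of the 28 cells with Gata1 at 10 CPM or more (interval 59.0 to 91.7%) and in 8 of the 18 below (21.5 to 69.2%), and it reached 10 CPM in 13 and in 3. The levels were 0, 8.81 and 466 CPM in the 28 cells and 0, 0 and 108 CPM in the 18. Those ranges overlapped as well, and the 5 cells with most Steap3 all lay among the 28. After thinning it was read in 17 of the 28 cells and 6 of the 18.

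Over all 46 cells, rho with Gata1 was 0.65 for Slc11a2, the 8th highest of 8600 genes, and 0.41 for Steap3, the 143rd. These were the 2 members of 10 at a rho of 0.4 or more, where 1.74% of all genes were, and 0 members lay at −0.4 or less, where 2.17% of all genes were. The value for Steap3 fell below 0.4 without the 1 cell that held 338 CPM of C1qb, without the 5 cells of lowest total count, given total count, after thinning and by Pearson's r of log2 values. After thinning and by Pearson's r the 2 members past 0.4 were Slc11a2 and Fth1. Total count and number of genes read had a rho of 0.18 and 0.04 with Gata1 over the same cells, which are all of 1 sample.

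Inside the upper Gata1 class both values were lower. Within the 28 cells with Gata1 at 10 CPM or more, rho with Gata1 was 0.20 for Slc11a2 and 0.07 for Steap3, and 0 members reached 0.4, where 1.51% of all genes did. Within the 18 cells below 10 CPM it was 0.43 and 0.32, where Gata1 itself was near the limit of detection and 5.50% of all genes reached 0.4. Slc11a2 thus differed between the classes more than it ranked with Gata1 inside the upper one.

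Fth1, with a rho of 0.39 over the 46 cells, stood just under the limit. It averaged 1025 ± 427 CPM in the 28 cells and 693 ± 331 CPM in the 18 (SD over cells), with ranges of 363 to 2436 CPM and 137 to 1404 CPM. Within the classes its rho had opposite signs, 0.398 in the 28 cells and −0.63 in the 18. In the 18 cells Gata1 was near the limit of detection, and the share of all genes at −0.4 or less was not counted. Ftl1 averaged 1730 ± 711 CPM in the 28 cells and 2043 ± 752 CPM in the 18, with a rho of −0.17. The class means of the chains thus differed in opposite directions. For Ftl1 the difference was less than either SD over cells. For Fth1 it was less than the SD of the 28 cells and about equal to that of the 18.

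The remaining members showed weak relations. Ireb2 had a rho of 0.27, Slc25a38 of 0.14, Tfrc of 0.08, Aco1 of 0.07, Ncoa4 of −0.10 and Slc25a37 of −0.19, and the median over the 10 members was 0.11 against 0.015 over all genes. Tfrc reached 10 CPM in 18 of the 28 cells with Gata1 at 10 CPM or more and in 12 of the 18 below, with medians of 68.0 and 42.9 CPM. Slc25a37, whose product feeds heme synthesis in erythroid cells, had medians of 1.21 CPM in the 28 cells and 19.1 CPM in the 18, and reached 10 CPM in 9 cells of each class. Ncoa4 had medians of 35.2 and 173 CPM. Cells with high Tfrc or Slc25a37 were found in both Gata1 classes.

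Relations to other genes of cell state were set beside that with Gata1. With Klf1, an erythroid transcription factor, rho was 0.66 for Slc11a2 and 0.42 for Steap3, and with Tgfbr3, the type III TGF-beta receptor, 0.46 and 0.41. With Mpo, the myeloperoxidase of neutrophil precursors, it was −0.53 and −0.48. With Kit, Ncoa4 had −0.42, and 0.430% of all genes were at −0.4 or less. Markers of both lineages moved with the Gata1 classes. Of 9 erythroid markers in the filter other than Gata1, 7 had a rho of 0.4 or more, and the list without Gata1 summed to 4.22 to 6260 CPM (median 2092) in the 28 cells and 3.60 to 2451 CPM (median 39.4) in the 18. Of 9 neutrophil and monocyte markers, 5 had −0.4 or less, and the list summed to 7.28 to 8347 CPM (median 105) in the 28 cells and 28.1 to 79732 CPM (median 7341) in the 18. Slc4a1, Hbb-bs and Hba-a1 of the erythroid list had no read in any cell. Mpo reached 1000 CPM in 2 of the 28 cells and 16 of the 18. The part of these markers in the levels of Slc11a2 and Steap3 was not tested.

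**Figure D2:**
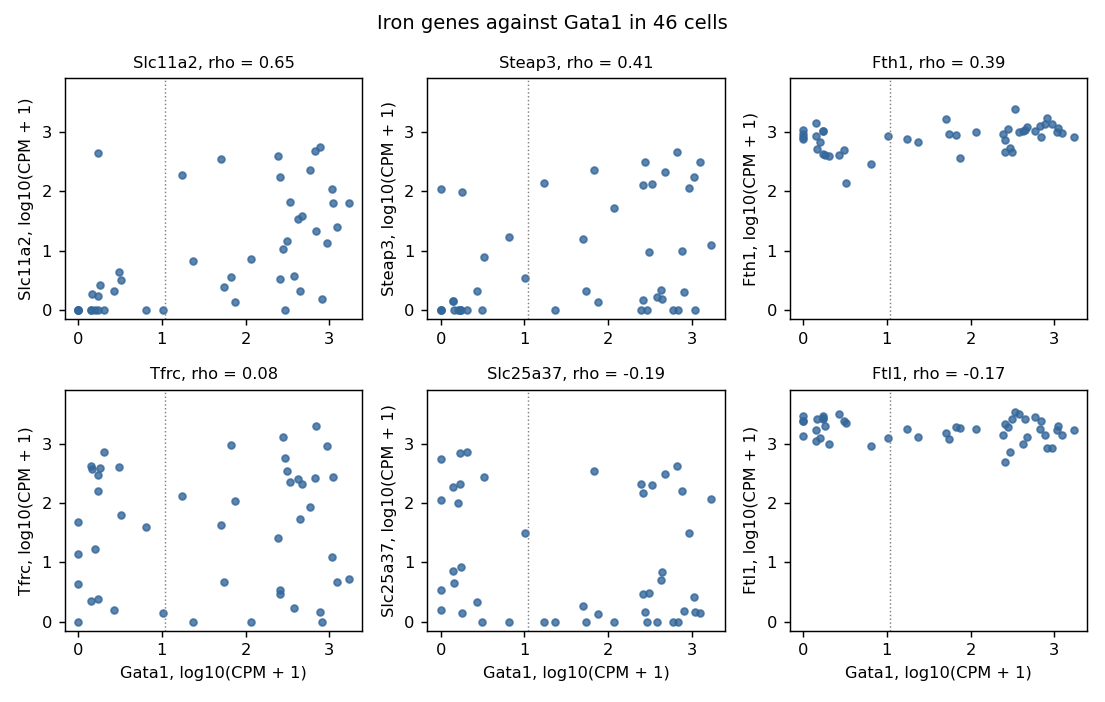
Level of 6 iron genes (vertical axis) against Gata1 (horizontal axis) in the 46 cells with C1qb under 1000 CPM, both as log10(CPM + 1), with rho above each panel. The dotted line is 10 CPM of Gata1. For Slc11a2, 1 cell left of the line exceeds 10 CPM, whereas Tfrc and Slc25a37 have high cells on both sides and Fth1 and Ftl1 form narrow bands.

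Of the 8 members with a promoter in the RefSeq table for GRCm38.p6, Steap3 was the one with the motif of GATA factors, at 1 of its 4 annotated starts. The motif was searched as AGATAA or TGATAA on both strands from 250 bases before to 50 bases after each start. The 250 bases before that start, of the window chr1:120271031-120271330 on the minus strand, are shown with the match in capitals, which reads as the reverse complement and begins at base 206.
Steap3, promoter: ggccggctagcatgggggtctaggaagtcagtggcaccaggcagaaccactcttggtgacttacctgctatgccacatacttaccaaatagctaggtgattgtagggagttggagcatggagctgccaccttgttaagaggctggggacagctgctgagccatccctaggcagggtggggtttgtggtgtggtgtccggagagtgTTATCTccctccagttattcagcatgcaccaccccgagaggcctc
The match lay in 1 of 15 windows of the members (6.67%), against 6115 of 32851 windows of all genes (18.6%). It is a match of letters, and binding was not measured. Slc11a2 and Slc25a37 are not in the table.

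Members did not move as a block. Over the 45 pairs of members, the median rho across the 46 cells was 0.04, against 0.014 over 36984300 pairs of genes in the filter. Slc25a38 and Steap3 had the highest value, 0.47, and Slc11a2 and Fth1 had 0.41. These were 2 of the 45 pairs (4.44%) at 0.4 or more, where 0.58% of all pairs were. Steap3 and Slc25a38 reached 10 CPM together in 9 cells, Steap3 alone in 7, Slc25a38 alone in 6 and neither in 24. Slc11a2 and Steap3, which act in the same endosome, had 0.35, and they reached 10 CPM together in 9 cells, Slc11a2 alone in 9, Steap3 alone in 7 and neither in 21. At the other end Slc11a2 and Ncoa4 had −0.39. Tfrc had no pair above the 0.21 it had with Ireb2.

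**Figure D3:**
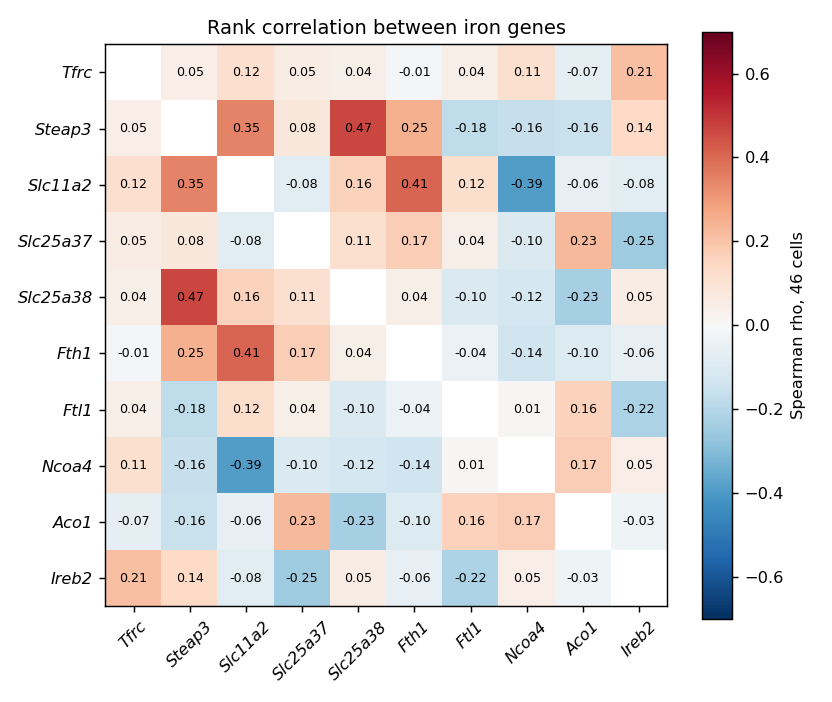
Spearman rho between each pair of the 10 iron genes over the 46 cells, with red for positive and blue for negative values. Steap3 with Slc25a38 (0.47) and Slc11a2 with Fth1 (0.41) are the darkest red cells, Slc11a2 with Ncoa4 (−0.39) the darkest blue, and most of the remaining grid is pale.

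The genes most like each member were named as the 3 of highest rho among 8600. They were picked for height from many values, and rho of unrelated genes over 46 cells has an SD of about 0.149. Whether any of them exceeds the highest values of unrelated genes was not tested. For Slc11a2 they were Gm15915 (0.67), Klf1 (0.66) and Gata1 (0.65). For Steap3 they were Fech (0.57), which inserts iron into heme, Alad (0.54), an early enzyme of heme synthesis, and Gm15915 (0.54). Tfrc was followed by Tamm41 (0.57), Oard1 (0.54) and Rtkn2 (0.53), and Slc25a38 by Sapcd2 (0.61), Shcbp1 (0.55) and 0610010K14Rik (0.54). Slc25a37 was followed by Nkrf (0.55), Foxn3 (0.51) and AW209491 (0.49). Fth1 was followed by Ublcp1 (0.56), Polr2c (0.55) and Sod2 (0.53), and Ftl1 by Krtcap2 (0.52), Atp6v0b (0.51) and Ebag9 (0.49). Ncoa4 was followed by Syvn1 (0.54), Siah2 (0.53) and Zfp518b (0.52), Aco1 by Brip1 (0.56), Chrna1 (0.52) and Rin1 (0.50), and Ireb2 by Rnf187 (0.54), Usp24 (0.53) and Abcb10 (0.53).

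Other iron genes were read in the same way. Of 80 listed for export, uptake, sensing, mitochondrial iron, heme synthesis and heme breakdown, 75 were in the table, 13 had no read in any cell and 52 passed the filter. Of the 52, 4 had a rho with Gata1 of 0.4 or more and 0 had −0.4 or less, with a median of 0.13. Of all genes, 1.74% and 2.17% did. The 4 were the biliverdin reductase Blvrb (0.65), the heme synthesis enzymes Cpox (0.58) and Alad (0.54), and Tmem14c (0.41), which moves porphyrin precursors into mitochondria. Thus 3 of 10 heme synthesis genes passed, 1 of 7 for heme breakdown and transport, 0 of 20 for mitochondrial iron and iron-sulfur clusters, 0 of 6 for uptake and reductases, 0 of 7 for chaperones, sensing and storage, and 0 of 2 for export. The iron hormone genes Hamp and Hamp2 had no read in any cell, and the erythroid enzyme Alas2 was read in 2 cells, with 12.8 CPM at most.

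**Figure D4:**
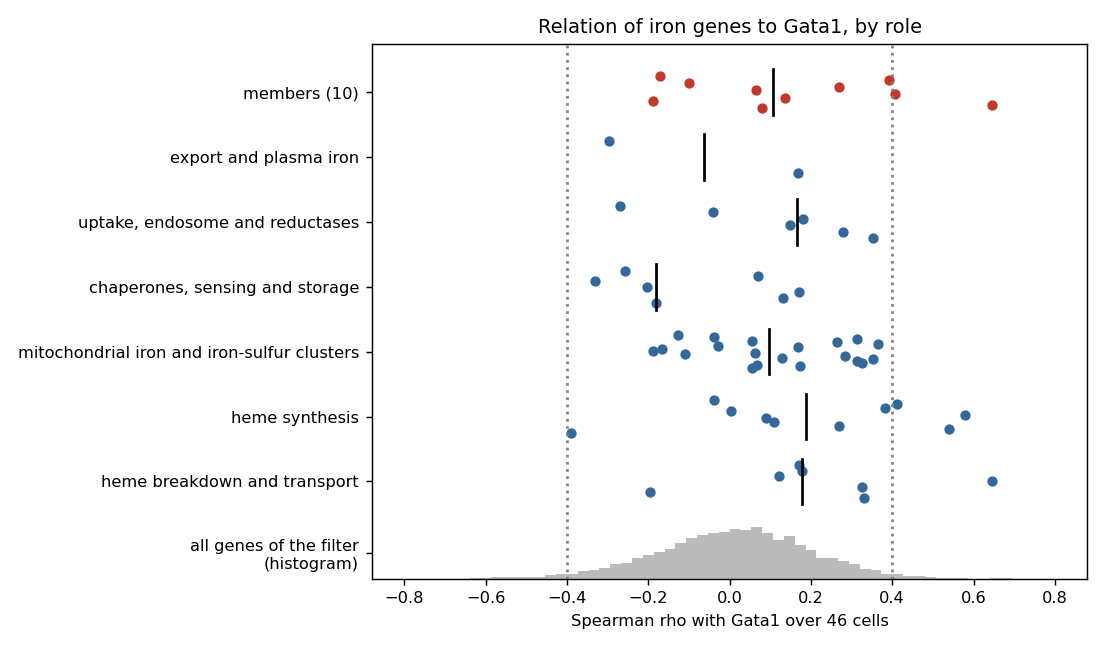
Spearman rho with Gata1 over the 46 cells for the 10 members (red) and for other iron genes of the filter by role (blue), with the median of each list as a black line and all 8600 genes as the grey histogram, whose height is relative. Dotted lines mark −0.4 and 0.4. Beyond the right line lie Slc11a2 and Steap3, 3 heme synthesis genes and Blvrb.

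In the C1qb-high cells the ferritin genes were far higher than in any other cell, and so, by a smaller margin that depends on the scaling, was Ncoa4. Ftl1 had 81726 and 32625 CPM in the C1qb-high cells, against 487 to 3367 CPM in the other 46. Fth1 had 26289 and 13382 CPM, against 137 to 2436 CPM. Ncoa4 had 2679 and 3597 CPM, against 0 to 1943 CPM. The groups did not overlap for these 3 genes, and the lower C1qb-high cell exceeded the highest other cell by 9.69 times for Ftl1, 5.49 times for Fth1 and 1.38 times for Ncoa4.

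In these cells 3 of 10 members lay above every other cell in both, where 2.24% of 8600 genes did, and 0 members lay below every other cell, where 0.384% did. Ferritin messages made up 4.53% (interval 4.50 to 4.56%) and 2.66% (2.64 to 2.68%) of all counts in the C1qb-high cells, and 0.112 to 0.690% in the other 46, with a median of 0.270%. The ratio of Ftl1 to Fth1 was 3.11 and 2.44 in the C1qb-high cells, inside the range of 0.488 to 16.4 of the others.

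The size of this contrast depends on scaling, since the TMM factors of these cells were low, 0.419 and 0.579 against 0.774 to 1.70 in the other 46, and raise their levels by 1.25 and 0.79 on the log2 scale. The means of the C1qb-high cells exceeded those of the other cells by 30.9 times for Ftl1, 22.2 times for Fth1 and 15.1 times for Ncoa4, or by 14.1, 9.97 and 7.97 times with plain library sizes. With plain library sizes Ncoa4 had 1123 and 2081 CPM in the C1qb-high cells, and the highest other cell had 1505 CPM, so that 2 members remained above every other cell, where 1.13% of all genes did.

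The remaining members gave no common picture in the C1qb-high cells, and for several the 2 cells differed widely. Tfrc had 1.47 and 1252 CPM, Slc11a2 0 and 235 CPM, and Aco1 13.2 and 646 CPM. The second cell was thus near the top of the range of the other 46 for these genes, with 2, 5 and 1 of the 46 above it, while the first was not. Slc25a37 had 20.5 and 0.692 CPM, Slc25a38 1.47 and 0.692 CPM, and Ireb2 1.47 and 13.8 CPM, all inside the range of the other cells. Steap3 had 0 counts in both, which allows up to 4.40 and 2.08 CPM by a limit of 3 counts, and 16 of the other 46 cells also had none.

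The iron genes outside the set that lay above every other cell in both C1qb-high cells were 5 of 52, where 2.24% of 8600 genes did. Slc40a1, the iron exporter ferroportin, had 14950 and 6514 CPM, against at most 1114 CPM in the other cells. Trf, which encodes transferrin, had 6106 and 7132 CPM, against at most 866 CPM. The others were Blvra (1613 and 896 CPM, against at most 548), Blvrb (688 and 1154 CPM, against at most 644) and Tmem14c (1205 and 860 CPM, against at most 804). With plain library sizes Slc40a1 and Trf still did so, whereas Blvra (676 and 518 CPM, against at most 539), Blvrb (288 and 668 CPM, against at most 719) and Tmem14c (505 and 498 CPM, against at most 807) did not. The heme-degrading enzyme Hmox1 was split, at 17680 and 145 CPM against at most 474 CPM. Under both scalings the 2 C1qb-high cells thus exceeded all others for ferritin, Slc40a1 and Trf. Of the iron genes with a 5′ UTR match, Alas2 had no read in these cells.

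Macrophage markers moved with this contrast by the choice of the cells. Of 11 in the filter other than C1qb, 10 lay above every other cell in both C1qb-high cells, where 2.24% of 8600 genes did. The filter took its mean over all 48 cells, the C1qb-high ones included. In the other 46, C1qa, Mrc1, Timd4, Vcam1, Marco and Mpeg1 averaged 0.227 to 2.67 CPM. These markers thus passed the limit of 5 CPM through the C1qb-high cells, and the count of 10 is in part set by the filter. The whole list summed to 31100 and 46330 CPM in the C1qb-high cells. In the other 46 it summed to 0 to 1995 CPM, with a median of 4.01 CPM. The erythroid list summed to 39.6 and 4.15 CPM in the C1qb-high cells and to 4.32 to 7356 CPM in the others, with Epor, Tal1 and Zfpm1 at 0 in both. The part of these markers in the levels of Fth1, Ftl1 and Ncoa4 was not tested.

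The cell with 338 CPM of C1qb was at the top of the other 46 for both ferritin genes, with 3367 CPM of Ftl1 and 2436 CPM of Fth1, and also for Slc40a1 and Hmox1, with 1114 and 474 CPM. It had 223 CPM of Tfrc, 66.0 CPM of Slc11a2, 135 CPM of Steap3 and 597 CPM of Ireb2, the second highest of the 46, but 3.45 CPM of Ncoa4. It thus held uptake genes and the highest ferritin levels of the 46 at once, while its Ncoa4 level lay below the median.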

How the data were processed

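Single-cell RNA sequencing of 48 fetal liver cells was analysed from the authors' deposited table of counts per gene. Per the submitters' processing notes, reads were handled with TopHat2 2.0.12, featureCounts 1.4.6 of Subread and build mm10; strand use and treatment of reads that map to several places are not given in the sources used here, which matters for ferritin, a family with pseudogene copies, and for Slc11a2, Slc25a37 and Ftl1, whose exons overlap other annotated genes. In the deposited log2 table each value is log2(count/size factor + 1) within 1e-06. The median-of-ratios size factors used as an alternative were computed from the counts. The columns match no sample title, so all cells are 1 sample and no test was made. Doublets were not called; per the labels' protocols chambers were inspected by eye. All cells passed minimums of 100000 counts and 1500 genes. Intervals treat cells, or counts for the ferritin shares, as independent draws. Amplified reads carried no molecular identifiers, and the intervals cover neither amplification nor spread between animals.

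CPM used TMM library sizes from edgeR 4.0.16 in R 4.3.3, with factors from 0.419 to 1.70. Python 3.11.15 with numpy 2.4.6, pandas 2.3.3 and scipy 1.17.1 gave Spearman rho over the 46 cells with C1qb under 1000 CPM, with a limit of 0.4, and matplotlib 3.10.9 the figures. The steps were tested on simulated data. Members and lists were chosen with earlier results of these data known. Named are all members, 6 marker genes of the cells, list genes past a limit, and the 3 genes most like each member; a few further genes (Alas2, Hamp, Hamp2, Hmox1) were chosen after their values were seen. Trfr2, Ftl2, Hjv, Flvcr1, Flvcr2 and Adgre1 are symbols of the lists with no row in the table. Alternatives were plain and median-of-ratios library sizes, thinning, other filters and limits, leaving out cells, Pearson's r with pseudocounts of 1 and 10, and partial correlations.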

Additional observations from a re-analysis of the deposited data

How the results depend on the processing

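The 2 members with a rho with Gata1 of 0.4 or more became 1, Slc11a2, without the 5 cells of lowest total count, given total count, at a limit of 0.5, and without the cell with 338 CPM of C1qb. Within the 28 cells with Gata1 at 10 CPM or more the count was 0. It became 3, with Fth1, under plain library sizes, at a limit of 0.3 and without the cell of highest Gata1, and after thinning and by Pearson's r the 2 were Slc11a2 and Fth1. The share of all genes past the limit was 1.19 to 2.42% over the settings at 0.4, 5.66% at 0.3 and 0.337% at 0.5. Leaving out either of those cells, and the values within the 28, were chosen after seeing the data. The cause of these changes was not tested. Over 10 settings rho ran from 0.46 to 0.66 for Slc11a2, 0.33 to 0.44 for Steap3, 0.33 to 0.44 for Fth1 and −0.06 to 0.11 for Tfrc. The number of members past the negative limit, −0.4 or of size 0.3 or 0.5, was 0 in all 14 settings tried. The share of all genes there was 1.78 to 2.76% at 0.4, 5.53% at 0.3 and 0.791% at 0.5. None of the 14 settings was confined to the 18 cells with Gata1 under 10 CPM, within which Fth1 had −0.63 and Ncoa4 −0.45. The share of all genes at −0.4 or less within those 18 cells was not counted. The number above every other cell was 2 or 3 in 6 settings, with both C1qb-high cells or with either alone. The share of all genes was 1.13 to 2.27% with both, 8.6% with the first alone and 7.19% with the second. Between the Gata1 classes, 12 of 60 ratios of means moved by over 1.5 times; for Slc25a38 the ratio of 2.21 became 7.56 without the 5 cells of lowest total count and 0.844 at a Gata1 limit of 100 CPM. Of 40 ratios of the C1qb-high cells to the others, 21 moved by that much, 9 of them with plain library sizes and 12 with 1 of the cells alone. With 48 cells of 1 sample, spread between animals cannot be given.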
